A study of Mus musculus with 3 samples.

Results

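The Nr4a nuclear receptors are Nr4a1 (also called Nur77), Nr4a2 (Nurr1) and Nr4a3 (Nor1). Members were taken as every array probe whose deposited gene name or RefSeq accession belonged to one of these genes, without regard to signal. 4 of 55681 gene probes, on 13 of 59305 gene spots, belonged to the family and stood for 3 of 35451 genes. 1 probe detected Nr4a1, 2 detected Nr4a2 and 1, printed on 10 spots, detected Nr4a3.

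RNA came from primary mouse embryonic fibroblasts (MEF) of the C57BL/6 strain, a mixed culture grown from trypsinised mid-gestation embryos without heads, legs and internal organs. The cells were left without treatment per the labels (the study's text names the solvent DMSO for the control) or were grown with n-butylidenephthalide (BP), a compound of the medicinal plant Angelica sinensis, at 10 µg/ml (BP10) or 40 µg/ml (BP40), and the time of exposure is not given in the sources used here. Each condition was measured on 1 Agilent 1-colour array, and the 3 arrays lay on 1 slide. The family was examined because BP has been described as acting through Nr4a1 in tumour cells.

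Nr4a proteins are transcription factors of the nuclear receptor superfamily whose ligand pocket is filled by side chains, so that their activity is set largely by how much of them is made. They are immediate early genes: growth factors, cyclic AMP, calcium and stress induce them within a short time, in fibroblasts too, through CREB at cyclic AMP response elements (CRE), MEF2 and SRF. They bind the response element NBRE as monomers, Nr4a1 and Nr4a2 also pair with RXR, and Nr4a1 can leave the nucleus and bind Bcl2 at mitochondria.

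The promoters are shown because cyclic AMP signalling through CREB is a main known input to these genes. The 250 bases before each RefSeq start site are given 5′ to 3′ on the strand of the gene (RefSeq, build GRCm38.p6), and capitals mark the CRE half-site TGACG or its reverse complement CGTCA. Nr4a1 lies at chr15:101266596-101266845 on the plus strand, Nr4a2 at chr2:57124004-57124253 on the minus strand and Nr4a3 at chr4:48045055-48045304 on the plus strand.
Nr4a1: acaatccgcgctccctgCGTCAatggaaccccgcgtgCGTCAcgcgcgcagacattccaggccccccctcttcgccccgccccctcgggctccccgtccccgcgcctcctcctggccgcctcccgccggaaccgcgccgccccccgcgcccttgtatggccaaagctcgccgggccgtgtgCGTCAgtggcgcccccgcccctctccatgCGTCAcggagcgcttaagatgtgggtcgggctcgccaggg
Nr4a2: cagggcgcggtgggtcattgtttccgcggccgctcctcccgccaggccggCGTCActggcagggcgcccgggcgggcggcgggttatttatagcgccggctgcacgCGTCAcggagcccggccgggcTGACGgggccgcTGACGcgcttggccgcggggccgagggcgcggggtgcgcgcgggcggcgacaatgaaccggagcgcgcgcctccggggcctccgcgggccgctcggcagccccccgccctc
Nr4a3: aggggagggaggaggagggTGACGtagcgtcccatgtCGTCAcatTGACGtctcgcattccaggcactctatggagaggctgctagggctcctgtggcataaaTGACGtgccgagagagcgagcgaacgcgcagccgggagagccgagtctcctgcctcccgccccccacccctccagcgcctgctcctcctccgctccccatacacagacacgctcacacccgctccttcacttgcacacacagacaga

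Each of the 3 promoters held 4 CRE half-sites, counted on both strands. The first base of these sites lay at -233, -213, -69 and -40 in Nr4a1, at -200, -144, -123 and -111 in Nr4a2 and at -231, -213, -205 and -147 in Nr4a3, relative to the start site. Among 32851 mouse promoters of the same length, 17.8% held at least 1 half-site and 0.137% held at least 4. The full palindrome TGACGTCA, which contains 2 overlapping half-sites, was in 1.55% of all promoters, the NBRE AAAGGTCA in 1.34% and the CArG box bound by SRF in 1.47%, and these letters were found in none of the 3 Nr4a promoters. G and C made up 74.4% of the Nr4a1 promoter, 80% of that of Nr4a2 and 63.6% of that of Nr4a3, against a median of 52.4% over all promoters, and half-site counts were not matched for base composition. These matches describe sequence and not binding.

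The probes are shown because the values rest on 1 stretch of transcript each. The array file places the Nr4a1 probe at chr15:101105071-101105130, the first Nr4a2 probe at chr2:56960699-56960758, the second at chr2:56959637-56959696 and the Nr4a3 probe at chr4:48080690-48083876 (build mm9). All are 60 bases long, and 30 bases are printed where the probe may lie in an untranslated region.
Nr4a1 A_51_P239654: ctcttccgctctccttccatgtgtacataa
Nr4a2 A_52_P494622: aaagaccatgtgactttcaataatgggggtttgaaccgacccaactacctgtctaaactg
Nr4a2 A_55_P1983508: aagggacacatagtgtttgtaacaccgccc
Nr4a3 A_51_P128397: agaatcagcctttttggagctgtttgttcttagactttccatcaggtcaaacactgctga

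The Nr4a3 probe spanned 3187 bases of the genome for its 60 bases, so it crossed a splice junction. The starts of the Nr4a2 probes were 1062 bases apart, and as the gene is on the minus strand, A_55_P1983508 lay nearer to its 3′ end. The Nr4a1 probe had a stop codon in all 3 forward reading frames, both Nr4a2 probes had 1 frame without a stop and the Nr4a3 probe had 2.

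Signals are given as the scanner's background-corrected intensity and as its log2 minus the 75th percentile of the same array, so that 0 is that percentile. A log2 ratio of 1 is a 2-fold difference. With 1 array per condition the differences had no replicate check and no test was made. The 3 arrays differed in ways that bear on the family: 81.7% of gene spots were well above background on the control array, 68.3% at BP10 and 69.1% at BP40, and the control was scanned apart from both BP arrays, so that the effects of BP and of the scan on a ratio to control cannot be told apart. After scaling, the 6 bright E1A spike-in probes, which detect RNA that the manufacturer's protocol adds to each sample, had a mean log2 ratio against control of -0.09 (BP10) and 0.64 (BP40), so every BP40 ratio against control would be 0.64 lower with the spike-ins as zero. All 15 fibroblast markers were above background on every array, with a summed signal of 1534 (control), 1104 (BP10) and 1204 (BP40) in units of the 75th percentile, and a median log2 ratio of -0.58 for BP10 and -0.49 for BP40. All 12 macrophage markers were detected too, with a summed signal between 32.1 and 38.8. For the neural markers it was 34.3 (control), 30.4 (BP10) and 27.1 (BP40), and for skeletal muscle markers 16.8, 16.8 and 18.3. Endothelial markers had 9.69, 8.47 and 10.0, and epithelial markers 6.30, 6.47 and 5.45. The epithelial markers Epcam and Cdh1, the endothelial markers Cdh5, Tie1, Erg and Esam and the muscle marker Myf5 were not well above background on any array. In the order control, BP10 and BP40, 8, 7 and 7 of 10 epithelial, 6, 6 and 6 of 10 endothelial, 11, 10 and 9 of 11 neural and 10, 9 and 7 of 11 skeletal muscle markers were above background. The part of cell composition in the values below was not tested, and in such bulk RNA fewer cells of a type and less RNA per cell cannot be told apart.

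Nr4a1, the member that BP has been tied to, was lower at BP10 and, under the reported scaling but not with spike-ins as zero, near control at BP40. Its intensity was 19531.7 on the control array, 8319 at BP10 and 11921 at BP40, and its log2 signal was 3.49, 2.57 and 3.30. The control was the highest of the 3 arrays and BP10 the lowest. The log2 ratio was -0.92 at BP10 (0.530 of control), -0.19 at BP40 (0.877 of control) and 0.73 for BP40 against BP10 (1.65-fold), each with an error of 0.20 from the scanner software's own estimate per spot, which does not cover differences between cultures. Among 10949 genes of mean log2 signal above 0, a range that holds Nr4a1, 219 (2.00%) had a lower ratio than Nr4a1 at BP10, 2363 (21.6%) at BP40 and 10535 (96.2%) for BP40 against BP10. The 1813 genes within 0.5 of its brightness had a median ratio of -0.09 at BP10 with the central 95% between -0.72 and 0.52, and Nr4a1 lay below that range. At BP40 their median was 0.06 and the central 95% lay between -0.64 and 0.66, which contained Nr4a1.

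The Nr4a1 difference at BP10 kept its size under each of 6 other processings, where it lay between -0.93 and -0.82. The BP40 values did not: the ratio against control lay between -0.83 and -0.18 and that of BP40 against BP10 between -0.0029 and 0.73, and in both cases the spike-in scaling gave the lowest value. With the spike-ins as zero, Nr4a1 was thus lower than control at both doses by a like amount, and the difference between the doses was gone.

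**Figure D1:**
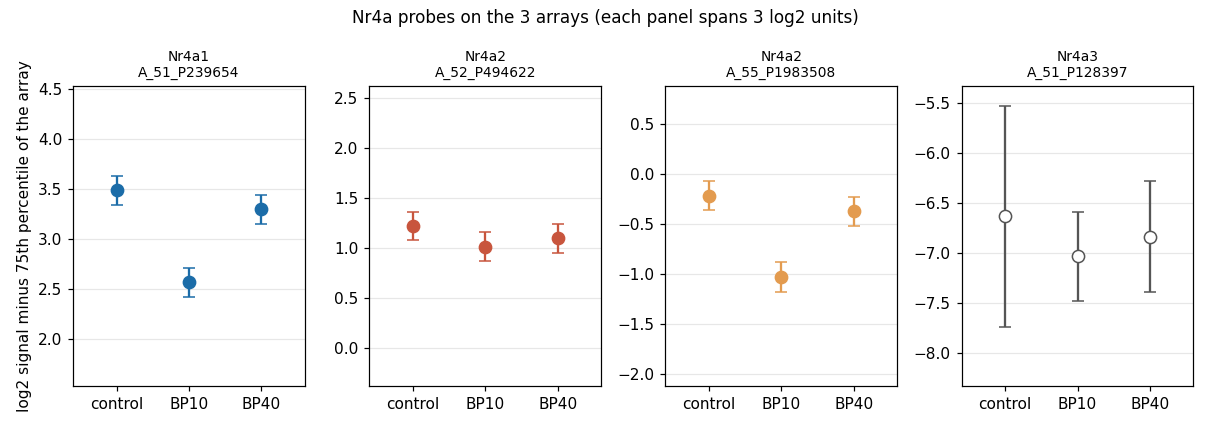
Log2 signal of each Nr4a probe on the control, BP10 and BP40 arrays, minus the array's 75th percentile; bars are the scanner software's error for single spots and, for Nr4a3, the SD over 9 or 10 spots, and open points were not above background on most spots. Nr4a1 and the Nr4a2 probe A_55_P1983508 were lowest at BP10 (2.57 and -1.03), while A_52_P494622 stayed between 1.02 and 1.22.

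Nr4a2, best known for its role in dopaminergic neurons and also an early response gene of fibroblasts, was read by 2 probes that differed at BP10. The brighter probe A_52_P494622, used for the gene, had an intensity of 4065 in control, 2834 at BP10 and 2601 at BP40, and a log2 signal of 1.22, 1.02 and 1.10. Its BP10 log2 ratio was -0.20, its BP40 log2 ratio -0.12 and that of BP40 against BP10 0.08, each within the software error of 0.20 or at its edge. The probe A_55_P1983508 had an intensity of 1502, 687 and 937, and a log2 signal of -0.22, -1.03 and -0.37 in the same order. This probe was lowest at BP10 by more than its error, with log2 ratios of -0.81 at BP10, -0.16 at BP40 and 0.65 for BP40 against BP10.

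The SD between the ratios of the Nr4a2 probes was 0.43 at BP10, 0.03 at BP40 and 0.40 for BP40 against BP10. The median of this SD over 4731 genes with 2 probes was 0.29, 0.22 and 0.21. Thus the probes of Nr4a2 were farther apart than this median at BP10 and between the doses, and closer at BP40. How many of these genes had probes as far apart is not given here. With the median of both probes the gene's ratio was -0.51 at BP10 and 0.37 for BP40 against BP10. Both probes kept a ratio below 0 at each dose against control under all 6 other processings, with A_52_P494622 between -0.28 and -0.11 and A_55_P1983508 between -0.83 and -0.71 at BP10. Whether the probes read different transcript ends was not tested. Of the 10949 bright genes, 3894 (35.6%) had a lower ratio at BP10 than Nr4a2 by its brighter probe, 3076 (28.1%) at BP40 and 4493 (41.0%) for BP40 against BP10.

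Nr4a3, which shares functions with Nr4a1 in blood and immune cells, was not well above background on most spots of any array. 3 of its 10 spots were well above background in control, 0 of 10 at BP10 and 0 of 9 at BP40, where 1 spot was an outlier and was left out. The lowest, median and highest spot intensity was 7.54, 14.1 and 45.9 in control, 8.65, 9.22 and 23.1 at BP10 and 7.44, 9.16 and 25.1 at BP40. The spot ranges overlapped between all arrays. Its log2 signal was -6.63, -7.04 and -6.84, with an SD between spots of 1.11, 0.45 and 0.56, and no fold is given as both arrays of each comparison were below background.

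The 3 Nr4a probes above background had the order control, then BP40, then BP10 from highest to lowest. The same order was found in 2331 (21.3%) of the 10949 bright genes and in 9882 (27.9%) of all 35451 genes, and the median log2 ratio of all genes was -0.23 at BP10 and -0.11 at BP40, the same order as in the family. The medians of the bright genes were -0.10 and 0.06, another order, with BP40 above control. With the spike-ins as zero, each of the 3 probes was lower at BP40 than at BP10, with log2 ratios from -0.65 (A_52_P494622) to -0.0029 (Nr4a1). A_52_P494622 also lost the order with the percentile over detected probes (-0.0023) and with like-brightness medians subtracted (-0.0039).

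0 of 3 Nr4a genes passed a 2-fold difference at BP10, where 13% of all genes and 2.2% of the bright genes did. 0 of 3 passed it at BP40, against 11.6% and 1.75%, and 0 of 3 between the doses, against 3.65% and 1.7%. With so few members, and with 2 of the 3 genes above background, a count of 0 does not set the family apart from other genes. Nr4a1 at BP10, with -0.92, was the nearest to the limit of -1.

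**Figure D2:**
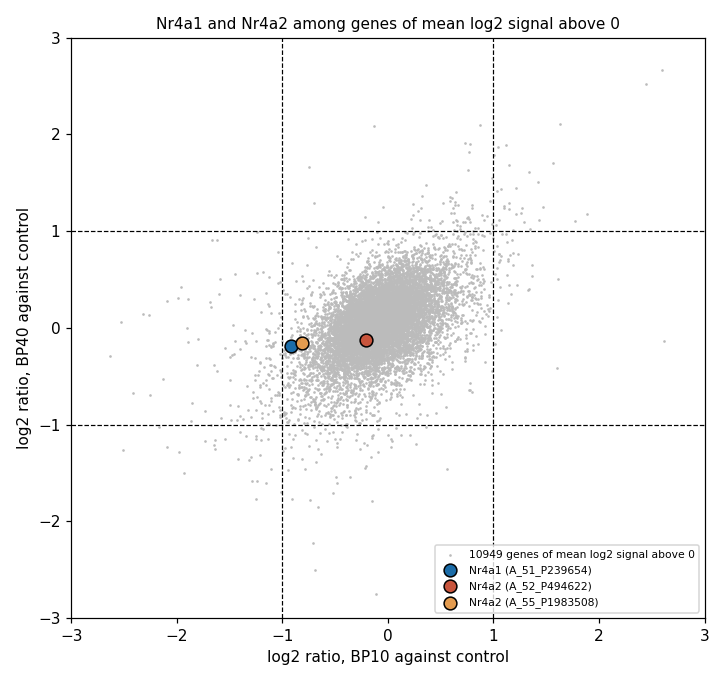
Horizontal axis, BP10 log2 ratio; vertical axis, BP40 log2 ratio, each against the same control array, for 10949 genes of mean log2 signal above 0 (grey, 5 of them outside the axes) and for the Nr4a1 and Nr4a2 probes (coloured); dashed lines mark 2-fold. Nr4a1 (-0.92, -0.19) lies at the left edge of the cloud and A_52_P494622 (-0.20, -0.12) within it, while A_55_P1983508 (-0.81, -0.16) is drawn for its ratios only, as its own mean log2 signal was below 0.

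As both ratios use the same control array, likeness between doses is in part built in. The genes nearest to Nr4a1 in the plane of both ratios, of 14990 compared, were Nell1 (-0.92, -0.20), Olfr656 (-0.90, -0.20) and Spint1 (-0.90, -0.18), and 32 genes lay within 0.1 of it. For Nr4a2 the nearest were Chmp3, AF067063 and Ttc8, with 565 genes within 0.1. None are given for Nr4a3, whose ratios were not measured above background.

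Of the genes upstream of Nr4a transcription, 0 of 28 passed 2-fold at BP10, at BP40 and between the doses. Over all genes 13%, 11.6% and 3.65% did, but these include many dim genes, whereas all 28 were above background on every array. Of the bright genes only 2.2%, 1.75% and 1.7% passed, so a count of 0 does not set this list apart. With the spike-ins as zero 3 of the 28 passed at BP40, against 28.2% of all genes. The list had a median ratio of -0.19 (BP10) and 0.02 (BP40). Both values lay below the bright-gene medians of -0.10 and 0.06 and above the all-gene medians of -0.23 and -0.11. Creb1, which binds the CRE, had ratios of -0.07 and -0.28 at BP10 and BP40, the first of which was above 0 under 4 of 5 other scalings. Mef2d, a MEF2 factor that carries calcium signals to Nr4a1, had 0.13 and -0.15. Hdac9, a class IIa deacetylase that represses MEF2, had the highest ratios of the list at 0.36 and 0.92, and its other probe gave -0.81 and -1.10 (it was named after its values were seen).

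Partners and modifiers of Nr4a proteins passed 2-fold in 0 of 26 members at BP10 and 0 of 26 at BP40. Of all genes 13% and 11.6% passed, and of the bright genes 2.2% and 1.75%. As 25 of the 26 were above background on every array, the count of 0 is near the share of the bright genes. Their median ratios were 0.03 and 0.12, against -0.23 and -0.11 for all genes and -0.10 and 0.06 for the bright genes. With the spike-ins as zero 3 of 26 passed at BP40, against 28.2% of all genes. Rxra, a dimer partner, had 0.53 and 0.19, and Rxrb, another, had -0.03 and 0.26. The small Rxrb value at BP10 was at or above 0 under all 5 other scalings. Bcl2, the survival protein that Nr4a1 binds at mitochondria, had 0.80 at BP10 and -0.01 at BP40, the opposite order of doses to Nr4a1 under the reported scaling. With the spike-ins as zero Nr4a1 had no such order, with -0.0029 for BP40 against BP10. Stk11 (Lkb1), a kinase that Nr4a1 can hold in the nucleus, had 0.61 and 0.22, and the BP40 values of Rxra, Rxrb and Stk11 were below 0 with the spike-ins as zero. Between the doses 1 of 26 passed, near the 3.65% of all genes and 1.7% of the bright genes. This was the acetyltransferase Ep300, with a ratio of -1.02. Ep300 did not pass with quantile normalization or normexp (-0.99 and -0.95). With the spike-ins as zero 8 of 26 passed between the doses, against 15.1% of all genes.

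Among genes with Nr4a response elements or known Nr4a control, 5 of 24 were lower and 1 higher by 2-fold or more at BP10, against 10.3% lower and 2.68% higher of all genes. At BP40 4 were lower and 0 higher, against 9% and 2.59%. Their median was -0.42 at BP10 and -0.32 at BP40, below the medians of -0.23 and -0.11 of all genes and of -0.10 and 0.06 of the bright genes. Of the bright genes 2.2% passed in either direction at BP10 and 1.75% at BP40, and 20 of the 24 were above background on every array. 2 genes were lower at both doses: Mmp13, a collagenase, by at least 1.53 and 1.52 on the log2 scale (bounds of -1.53 and -1.52, as its BP arrays were not above background), and G6pc, the last enzyme of glucose release, with -1.21 and -1.15. Both ratios share 1 control array, and the share of all genes lower at both doses is not given here. The other genes lower at BP10 were Slc6a3, Cyp21a1 and Star, and those lower at BP40 were Eno3 and Foxp3, while Fbp1 was higher at BP10. The 2-fold calls depended on the processing: 0 of 24 passed at BP10 and 2 at BP40 with normexp background correction, 2 and 2 with like-brightness medians subtracted, and 10 at BP40 with the spike-ins as zero. Of all genes 4.06% and 3.05% passed with normexp, 9.4% and 8.41% with like-brightness medians, and 28.2% at BP40 with the spike-ins. The excess of lower over higher calls was also seen over all genes, and there it turned under quantile normalization, where 54.3% of calls at BP10 were higher, or with like-brightness medians, where 67.3% were.

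None of the 31 immediate early genes that are induced together with Nr4a1 had a BP10 ratio as low as its -0.92, and the lowest was -0.65 for Klf4. 2 of 31 were higher and 0 lower at BP10, and 1 higher and 0 lower at BP40, with medians of 0.05 and 0.25. Of all genes 2.68% were higher and 10.3% lower at BP10 and 2.59% and 9% at BP40, with medians of -0.23 and -0.11. As 30 of the 31 were above background on every array, the bright genes are the nearer comparison. Of these 2.2% passed in either direction at BP10 and 1.75% at BP40, with medians of -0.10 and 0.06. Ier5, a response gene of growth and heat stress, had 1.22 at BP10 by its brighter probe and -0.13 by the other, and Dusp5, a nuclear ERK phosphatase, had 1.53. Dusp1, a phosphatase of MAP kinases, had 0.69 at BP10 and 1.02 at BP40. It was the 1 gene of the list past 2-fold at BP40, and under the 5 other scalings it had 0.38 to 0.97 there and did not pass. With the spike-ins as zero 4 of the 31 genes passed at BP40, against 28.2% of all genes. Fos had -0.17 and 0.28, Egr1 -0.36 and 0.01, and Junb, an AP-1 subunit, 0.94 and 0.35, with the BP40 value of Egr1 below 0 under all 5 other scalings and those of Fos and Junb below 0 with the spike-ins as zero.

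Among cyclic AMP and CREB target genes, 2 of 20 were higher and 0 lower at BP10, and 4 higher and 0 lower at BP40, with medians of -0.30 and -0.08. Of all genes 2.68% were higher and 10.3% lower at BP10 and 2.59% and 9% at BP40, with medians of -0.23 and -0.11. 18 of the 20 were above background on every array. Of the bright genes 2.2% passed in either direction at BP10 and 1.75% at BP40, with medians of -0.10 and 0.06. With the spike-ins as zero 7 of the 20 passed at BP40, against 28.2% of all genes. Id1 and Id3, inhibitors of basic helix-loop-helix factors that also respond to BMP signals, passed at both doses with 1.33 and 1.62 for Id1 and 1.27 and 1.24 for Id3. Both ratios share 1 control array, and the share of all genes higher at both doses is not given here. Vgf, a secreted neuropeptide precursor, passed at BP40 with 2.09 and had -0.13 at BP10.

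Of the other nuclear receptors, 4 of 45 were higher and 5 lower at BP10, and 3 higher and 5 lower at BP40. Of all genes 2.68% were higher and 10.3% lower at BP10, and 2.59% and 9% at BP40. The share of the list that was lower (11.1% at each dose) was near that of all genes, while the share that was higher was above it. In either direction 20.0% of the list passed at BP10 and 17.8% at BP40, against 13% and 11.6% of all genes. Their medians were -0.22 and -0.07, against -0.23 and -0.11. With normexp background correction 4 of 45 passed at each dose, against 4.06% of all genes at BP10 and 3.05% at BP40. Under the reported scaling 6 receptors were picked as past 2-fold in the same direction at both BP10 and BP40. The sameness of sign was thus a condition, and both ratios share 1 control array. The share of all genes that meet this condition is not given here. Pparg, the receptor of fat cell formation, was higher with 1.47 and 1.25. Hnf4g, a receptor of gut and liver, was lower with -1.52 and -1.71, and Nr1i2, the pregnane X receptor, with -1.48 and -1.01. Nr1i3, the constitutive androstane receptor, was lower by at least 1.51 at BP10 (a bound of -1.51) and had -1.21 at BP40. Nr5a2, the liver receptor homologue, had 4.42 at BP40 by 1 probe and -0.45 by its other probe, and was named after its values were seen.

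**Figure D3:**
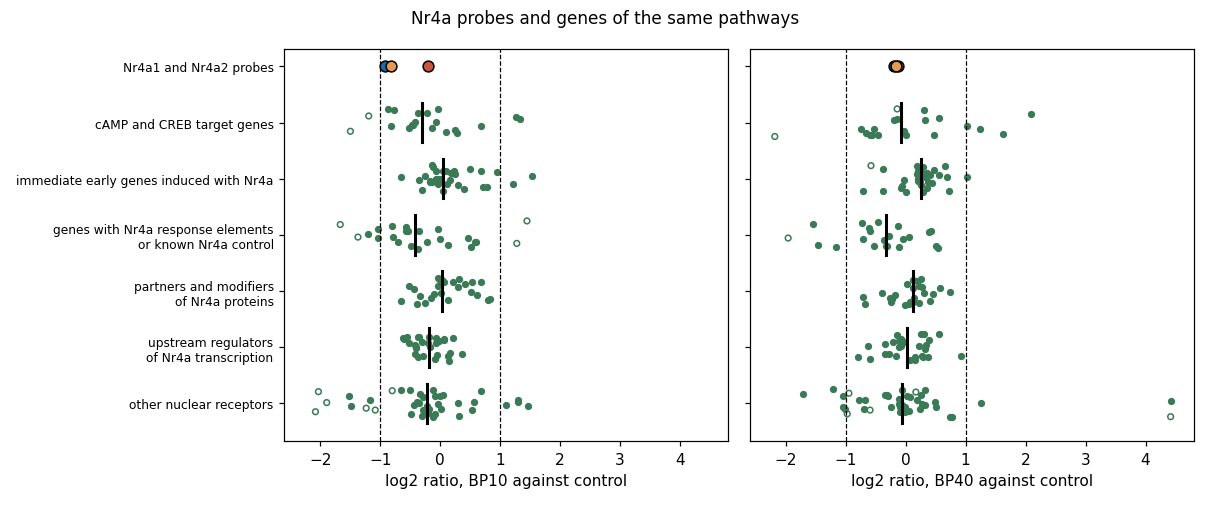
Log2 ratios of BP10 (left) and BP40 (right) arrays against control for the Nr4a1 and Nr4a2 probes (top row, colours as in the plot of values by array) and for each gene of 6 pathway lists (green; open circles had 1 of the 2 arrays not above background, genes below background on both are not drawn); black bars are list medians and dashed lines mark 2-fold. At BP10 the immediate early genes centre on 0.05, while Nr4a1 lies at -0.92.

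**Figure D4:**
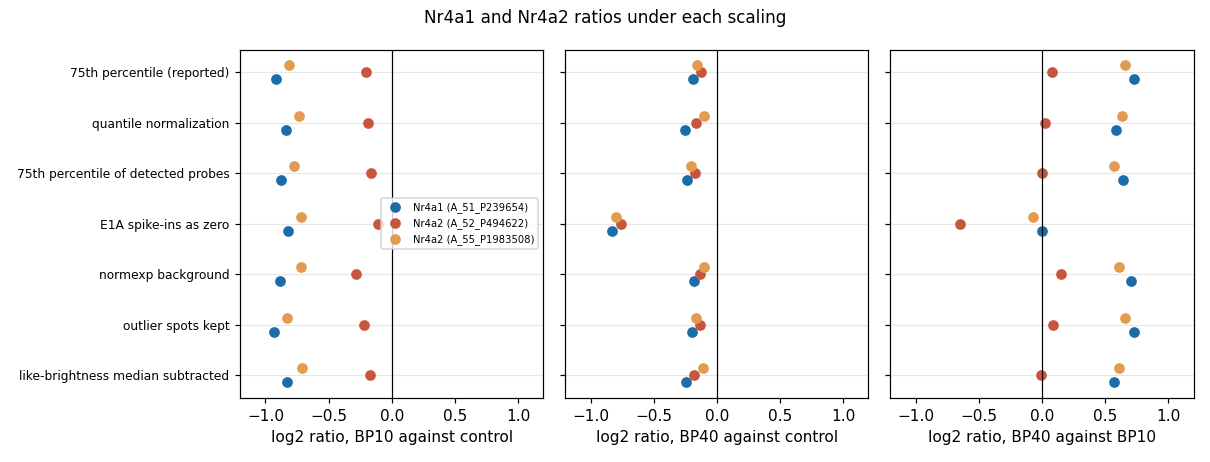
Log2 ratio of the Nr4a1 and Nr4a2 probes (horizontal, 1 panel per comparison) under the reported scaling and 6 other processings (rows). The BP10 ratios keep their place in every row (Nr4a1 between -0.93 and -0.82), whereas with E1A spike-ins as zero Nr4a1 moves from -0.19 to -0.83 at BP40.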

How the data were processed

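Total RNA of 3 MEF cultures, grouped by the treatment in the labels, was labelled with Cy3 and hybridised to Agilent mouse arrays. The authors deposited Feature Extraction 10.5.1.1 output with an intensity for each spot, already corrected for background and spatial trend but unscaled across arrays. Their series table repeats that intensity (100% of spots within a relative tolerance of 0.0001).

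From the deposited intensity, log2 was taken, outlier spots were left out, the 75th percentile of each array was subtracted and the spots of a probe were averaged (Python 3.11.15, numpy 2.4.6, pandas 2.3.3). RefSeq accessions named 26425 of 55681 probes and the deposited gene name the rest, and 55126 probes were measured on all 3 arrays. A probe counted as above background if most of its spots were flagged so. A gene took the probe above background on most arrays, then the brightest. It passed at 2-fold if 1 or both of the compared arrays were above background. If 1 only, the other array's floor gave a bound. With 1 array per condition no test was made and the number of arrays limits precision.

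The members and lists were chosen with earlier results of these data known. Named genes were every Nr4a probe, up to 4 genes per list with the largest mean ratio past 2-fold the same way at both doses, Rxra, Rxrb, Bcl2, Fos, Egr1, Junb, Dusp1, Creb1, Mef2d and Stk11, and the 3 genes nearest to each Nr4a gene above background. Others were named after their values were seen. Alternatives were quantile normalization and normexp (limma 3.58.1, R 4.3.3, offset 50), another percentile, E1A spike-ins, like-brightness medians, outlier spots kept, probe medians, and other fold limits and background filters. Simulated data were used to check the 2-fold calls, with the same noise for all genes and 3-fold changes in genes above background on all arrays. Recovery of changes in dim genes or near 2-fold was not checked. Exons and untranslated regions at the probes were not analysed here.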

Additional observations from a re-analysis of the deposited data

How the results depend on the processing

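No paired analysis was possible because only 1 array stood for a condition. Of 54 recomputed ratios of Nr4a1 and Nr4a2 probes, 48 moved by less than the median SD between probes of a gene and 6 by more, all 6 with the spike-ins. Nr4a3 was below background in each comparison and its ratios were not recomputed. With the bright E1A spike-ins as zero the BP40 ratios against control were -0.83 for Nr4a1, -0.76 for A_52_P494622 and -0.80 for A_55_P1983508, and those of BP40 against BP10 were -0.0029, -0.65 and -0.074. With the median of both probes, Nr4a2 had -0.51 at BP10 and 0.37 for BP40 against BP10. At 1.5-fold 1 of 3 Nr4a genes passed at BP10 and 1 of 3 between the doses, against 28.5% and 13.3% of all genes. The series table repeats the intensities, so it gave the reported values and is not counted here.

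Counts of listed genes past 2-fold were less stable: 76 of 180 recomputed counts moved by more than 1.5 times, and the causes were not tested. They are given in the order other nuclear receptors, upstream regulators, partners, genes under Nr4a control, immediate early genes and cyclic AMP targets. The reported counts were 9, 0, 0, 6, 2 and 2 at BP10, 8, 0, 0, 4, 1 and 4 at BP40 and 4, 0, 1, 1, 1 and 1 between the doses. At 1.5-fold they were 12, 2, 5, 11, 7 and 6, then 14, 4, 3, 8, 5 and 7, then 5, 2, 5, 5, 3 and 3. At 3-fold they were 0 for all lists at BP10, then 3, 0, 0, 0, 0 and 2, then 3, 0, 0, 0, 0 and 1. With spike-ins as zero they were 9, 0, 0, 4, 3 and 2, then 11, 3, 3, 10, 4 and 7, then 8, 1, 8, 5, 8 and 2. With normexp they were 4, 0, 0, 0, 2 and 3, then 4, 0, 0, 2, 0 and 3, then 3, 0, 0, 0, 0 and 1. With quantile normalization they were 6, 0, 1, 4, 3 and 2, then 4, 1, 0, 3, 0 and 3, then 4, 0, 0, 1, 1 and 1. With like-brightness medians subtracted they were 5, 1, 1, 2, 3 and 2, then 5, 1, 0, 2, 0 and 3, then 4, 0, 1, 1, 1 and 2. With the median of all probes they were 7, 1, 1, 6, 1 and 3, then 9, 0, 1, 4, 1 and 4, then 4, 1, 2, 2, 1 and 1. Without a filter on dim probes they were 13, 0, 0, 7, 2 and 4, then 9, 0, 1, 5, 1 and 5, then 6, 0, 1, 2, 1 and 2. With both arrays required above background they were 7, 0, 0, 3, 2 and 2, then 7, 0, 0, 3, 1 and 4, then 2, 0, 1, 0, 1 and 1. With the percentile over detected probes they were 9, 0, 0, 5, 2 and 2, then 8, 0, 0, 4, 0 and 3, then 4, 0, 1, 1, 1 and 2. The shares of all genes at BP10, at BP40 and between the doses moved too. They were 28.5%, 26.6% and 13.3% at 1.5-fold, 11.6%, 28.2% and 15.1% with spike-ins as zero and 4.06%, 3.05% and 1.51% with normexp.

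Over all genes, 4592 passed at BP10, 4107 at BP40 and 1295 between the doses, with 20.7%, 22.3% and 51.4% of them higher. The share higher was 54.3%, 55.2% and 47.1% with quantile normalization, 67.3%, 61.8% and 43.0% with like-brightness medians, 32.9%, 46.4% and 56.6% with normexp (1441, 1083 and 535 genes), 28.2%, 2.33% and 2.56% with spike-ins (4128, 10002 and 5360 genes) and 23.1%, 18.8% and 41.2% with the percentile over detected probes. The numbers were 7980, 7220 and 3445 without a filter on dim probes, 3415, 3141 and 836 with both arrays above background, 10119, 9430 and 4730 at 1.5-fold and 951, 840 and 401 at 3-fold. The median ratio of all genes moved by 0.19, 0.22 and 0.14 at BP10 with quantile, like-brightness and normexp, by 0.11, 0.11 and 0.18 at BP40, and with spike-ins by -0.64 at BP40 and -0.73 between the doses. Signal over background limits Nr4a3, of which no difference could be measured.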
